A study of Mus musculus with 2 samples.

Results

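The genes Il4, Il13 and Il6 were followed in E-cadherin+ cells of mouse bone marrow, as 3 of the 31053 genes in the count matrices, chosen by their symbols. Single-cell RNA sequencing had been run on E-cadherin+cKIT+ cells and, apart, on E-cadherin+cKIT- cells, sorted by surface protein from the bone marrow of FVB mice to ask how the progenitors and the basophil or mast cell precursors relate. Neither group was treated, and each was 1 library, so that no difference between the sorts below has a replicate and none was tested. The study's text calls the mice wild-type in one place and Vav-iCre;mTmG in another, that is, carriers of a Cre recombinase driven by the Vav1 promoter in blood cells and of a fluorescent reporter; the cells of several mice were pooled without a label per animal, and no age was given. Intervals are 95% intervals for counting error alone.

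IL-4 and IL-13 are the signature cytokines of type 2 immunity, which act through a shared receptor chain and STAT6 in defence against worms and in allergy. IL-6 signals through IL-6 receptor and gp130 to STAT3 and acts in inflammation and in the growth of blood progenitors. Mature basophils, which carry the proteases Mcpt8 and Prss34 and the high-affinity IgE receptor with its chain Fcer1a, are known as a rapid source of IL-4, and mast cells and basophils can both release IL-6 and IL-13.

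Il4 and Il13 lie next to each other on the minus strand of chromosome 11, with 12654 bases between them, and Il6 is on the plus strand of chromosome 5 (GRCm38, the assembly of the mm10 build used for the counts). The main Il4 transcript has 4 exons at chr11:53612460-53618669, that of Il13 has 4 exons at chr11:53631324-53634702, and that of Il6 has 5 exons at chr5:30013114-30019975. No annotated gene overlapped any of them. The sequences shown here are the 250 bases before each start, from RefSeq (GRCm38.p6), because all 3 genes had a higher level in the cKIT- library and NFAT factors are known activators of cytokine genes. Capitals mark GGAAA, the core bound by NFAT, or its reverse complement TTTCC, the single motif searched, on both strands.
Il4 (chr11:53618666-53618915, minus strand): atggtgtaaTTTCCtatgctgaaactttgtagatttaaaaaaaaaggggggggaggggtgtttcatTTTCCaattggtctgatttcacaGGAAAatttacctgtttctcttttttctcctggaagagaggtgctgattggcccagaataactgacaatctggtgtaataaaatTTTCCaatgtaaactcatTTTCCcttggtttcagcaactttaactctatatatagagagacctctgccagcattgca
Il13 (chr11:53634703-53634952, minus strand): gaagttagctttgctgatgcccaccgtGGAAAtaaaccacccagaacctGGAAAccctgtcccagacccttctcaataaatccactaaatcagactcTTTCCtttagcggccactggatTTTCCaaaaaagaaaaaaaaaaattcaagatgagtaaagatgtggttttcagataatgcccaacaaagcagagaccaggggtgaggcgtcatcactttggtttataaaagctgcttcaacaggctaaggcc
Il6 (chr5:30012864-30013113, plus strand): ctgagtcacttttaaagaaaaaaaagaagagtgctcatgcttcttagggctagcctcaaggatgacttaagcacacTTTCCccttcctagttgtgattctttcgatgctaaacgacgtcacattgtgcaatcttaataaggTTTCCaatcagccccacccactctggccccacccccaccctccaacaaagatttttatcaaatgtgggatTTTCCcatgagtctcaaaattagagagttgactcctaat

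The Il4 promoter held 5 matches, the first base of which lay between 241 and 59 bases before the start. Il13 held 4 matches between 223 and 131 bases before its start, and Il6 held 3 between 174 and 39 bases. Of the 32851 RefSeq promoters of the same length, 55.6% had at least 1 match and the median was 1. As many as in Il4 were found in 0.390% of them, as many as in Il13 in 1.59%, and as many as in Il6 in 6.39%. A match describes the letters only and does not show that a factor was bound. The motif was chosen with the levels known, and a part of NFAT in them was not tested.

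After the study's limits on cells, 6479 cKIT+ cells with 91108781 UMIs and 3662 cKIT- cells with 22869169 UMIs remained, with medians of 13039 and 4416.5 UMIs per cell. A UMI, or unique molecular identifier, marks 1 captured molecule, and levels are given as CPM, the UMIs of a gene per 1000000 UMIs of the cells concerned. The 2 libraries shared 10 cell barcodes. Kit, the sorting marker, was at 37.1 CPM in cKIT+ and 0.875 CPM in cKIT- cells, as the labels say, and Cdh1, which encodes E-cadherin, was at 62.8 and 193 CPM. Of the basophil genes, Mcpt8 was 2.36-fold, Prss34 3.67-fold and Fcer1a 3.71-fold higher in the cKIT- library. A Mcpt8 UMI was present in 5747 cKIT+ cells (88.7%) and in 3339 cKIT- cells (91.2%), which are called Mcpt8-positive below. These cells were made up differently in the sorts. Basophil-like cells were 65.7% of them in cKIT+ and 60.3% in cKIT-, the unnamed clusters 0 and 10 (described below) were 1.08% and 5.29% in cKIT+ and 34.2% and 0 in cKIT-, and other named types were 27.9% and 5.51%. A Mcpt8 UMI was also present in 75.2% and 44.7% of the cells of those other types, so that the Mcpt8-positive cells are not basophil-like cells alone. Molecules are counted near the 3' end of the RNA, where capture differs between genes, so levels are compared between cells and not between genes.

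Il4, the cytokine that directs type 2 responses, stood furthest apart between the sorts. It was at 2.62 CPM in the cKIT+ library (interval 2.30 to 2.98, 239 UMIs) and at 37.3 CPM in the cKIT- library (34.9 to 39.9, 854 UMIs). The cKIT- level was 14.2-fold higher (12.3 to 16.5), and 6.32-fold higher when counted as UMIs per cell, since cKIT- cells held fewer UMIs in all. Among Mcpt8-positive cells, 219 cKIT+ cells (3.81%, 3.33 to 4.34) and 691 cKIT- cells (20.7%, 19.3 to 22.1) held an Il4 UMI. The cKIT- cells thus showed the higher share in the shallower library. With every cell thinned to 2000 UMIs and Mcpt8 read from the same thinned cell, the shares were 1.08% (0.798 to 1.44) and 10.0% (9.01 to 11.1). Among Mcpt8-positive cells outside the other named types, a grouping chosen after the values were seen, they were 4.90% and 21.8% at deposited depth and 1.11% and 10.3% at 2000 UMIs.

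Il6, the pleiotropic inflammatory cytokine, was the most often detected of the 3 genes in both libraries. It was at 26.6 CPM in cKIT+ cells (25.6 to 27.7, 2427 UMIs) and at 126 CPM in cKIT- cells (122 to 131, 2888 UMIs), a 4.74-fold higher level in the latter (4.49 to 5.01), or 2.11-fold as UMIs per cell. Of Mcpt8-positive cells, 1621 of the cKIT+ sort (28.2%, 27.0 to 29.4) and 1746 of the cKIT- sort (52.3%, 50.6 to 54.0) held an Il6 UMI. At 2000 UMIs per cell the shares were 7.01% (6.27 to 7.81) and 26.7% (25.2 to 28.3). Outside the other named types they were 37.4% and 54.9% as deposited and 7.79% and 27.6% at 2000 UMIs.

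Il13, which acts on mucus, smooth muscle and tissue repair, was close to the limit of detection. The cKIT+ library held 30 UMIs (0.329 CPM, 0.222 to 0.470) and the cKIT- library 28 UMIs (1.22 CPM, 0.814 to 1.77). On this scale Il13 was 3.72-fold higher in cKIT- cells, with an interval of 2.14 to 6.44, and 1.65-fold as UMIs per cell. Among Mcpt8-positive cells 27 of the cKIT+ sort (0.470%, 0.310 to 0.683) and 28 of the cKIT- sort (0.839%, 0.558 to 1.21) held it, and these intervals overlapped. At 2000 UMIs there were 5 such cells (0.115%, 0.0375 to 0.269) and 11 (0.353%, 0.176 to 0.630), which again overlapped. In the cKIT+ library 40% of the Il13 UMIs came from 10 cells, and in the cKIT- library 35.7%, where no cell held more than 1. With so few UMIs, these values do not show that Il13 was concentrated in a few cells.

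Il4 and Il6 passed a mean of 5 CPM over both libraries and Il13 did not. Both were more than 2-fold higher in cKIT-, as were 8.61% of the 9068 genes with such a mean, and 7.31% of them were more than 2-fold lower. The median ratio of all these genes was 1.02. A gene can pass that mean through 1 library alone, as Il4 did, at 2.62 CPM in cKIT+ and 37.3 CPM in cKIT-. Markers of other blood cells also differed between the sorts, since 2133 cKIT+ cells and 412 cKIT- cells fell in named classes other than basophil-like. Within basophil-like clusters alone Il4 was 8.97-fold and Il6 3.36-fold higher in cKIT- cells, at 28.7 against 3.20 CPM and 111 against 33.0 CPM. This class leaves out the unnamed cluster 0, which held 33.8% of the cKIT- cells and the highest Il4 and Il6 levels of all clusters. Most basophil-like cKIT+ cells were in clusters 2, 5, 6 and 7 and most cKIT- ones in clusters 3, 1 and 12, so the makeup of the class differed as well.

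**Figure D1:**
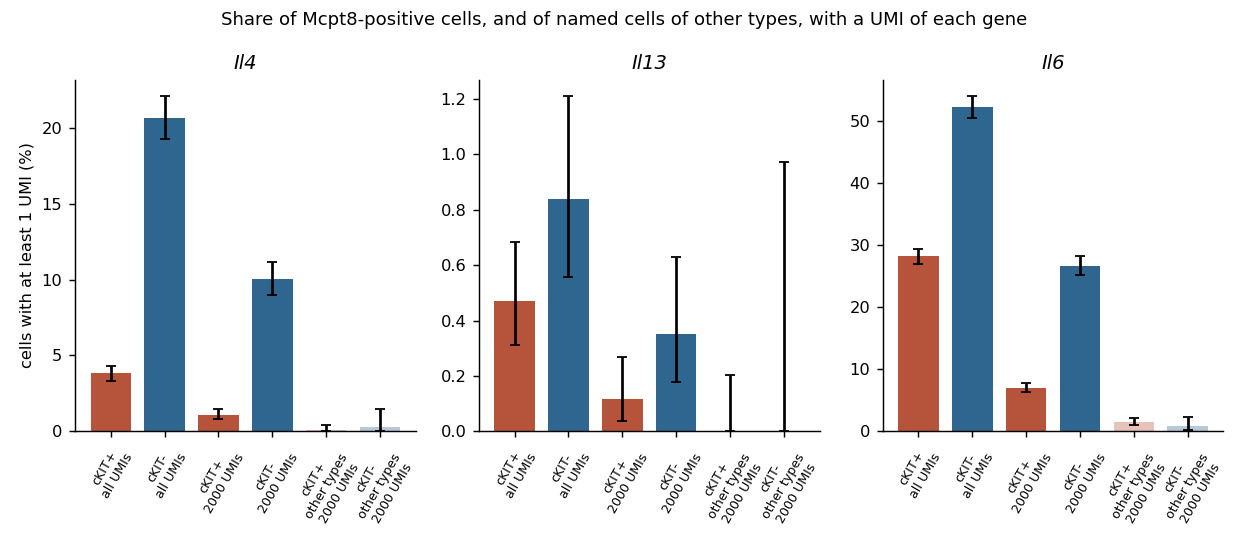
Bars give the percentage of Mcpt8-positive cells with at least 1 UMI of Il4, Il13 or Il6 in the cKIT+ (red) and cKIT- (blue) library, at deposited depth and at 2000 UMIs per cell, and pale bars the named cells of other types at 2000 UMIs; error bars are 95% exact binomial intervals. For Il4 (1.08% against 10.0%) and Il6 (7.01% against 26.7%) the intervals of the sorts lie apart at 2000 UMIs, while for Il13 (0.115% against 0.353%) they overlap.

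As a background, the same genes were read in cells of other named types, some of which, such as eosinophils, monocytes and B cells, can make these cytokines themselves. In the 2133 cKIT+ cells of named types other than basophil-like, with a median of 9938 UMIs, Il4 was found in 0.844% and Il6 in 3.61%, against 4.67% and 35.8% of the 3835 basophil-like cells with a median of 14460 UMIs. In the 412 such cKIT- cells, with a median of 3020 UMIs, Il4 was found in 0.971% and Il6 in 3.4%, against 20.3% and 57.1% of the 2014 basophil-like cells at a median of 8398 UMIs. At 2000 UMIs the other types held Il4 in 0.111% and 0.265% of cells and Il6 in 1.44% and 0.794%. Il13 was in 1 of the 2133 and 0 of the 412 cells. In the granulocyte/monocyte progenitor-like cluster 8 at that depth, Il6 was found in 0.412% of 486 cells and Il4 in 0, which allows a share of up to 0.617%. Over the whole basophil-like class at 2000 UMIs, the shares were 0.861% and 6.23% for Il4 and 6.50% and 22.0% for Il6, above these levels. The interval of the cKIT+ Il4 share, 0.594 to 1.21, took in the 0.617% of cluster 8. Some single clusters had lower shares. At 2000 UMIs Il4 was in 0 of 513 and 0 of 302 cKIT+ cells of the basophil-like clusters 6 and 15. This allows shares of up to 0.585% and 0.993%, and both intervals overlapped that of the class. At deposited depth Il4 was in 3.90% and 0.331% of the cKIT+ cells of these clusters. At 2000 UMIs, Il6 was in 1.99% of cluster 15, against 2.45% of eosinophil-like cKIT+ cells. The latter joined 6.86% in cluster 11, which also expressed 9 of the 10 basophil markers, and 0.282% in cluster 14.

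Most positive cells held a single molecule. Of the Mcpt8-positive cKIT+ cells, 205 had 1 Il4 UMI, 13 had 2 and 1 had 3. In the cKIT- sort 561 cells had 1 Il4 UMI, 114 had 2, 15 had 3 and 1 had 4. At least 2 Il4 UMIs were therefore seen in 0.244% and 3.89% of cells. Il6 reached 6 UMIs in a cKIT+ cell and 13 in a cKIT- cell, and at least 2 Il6 UMIs were found in 8.82% and 21.1% of cells. No cKIT- cell held more than 1 Il13 UMI, and 2 cKIT+ cells held 2. The Il4 and Il6 counts were spread over many cells, since the 10 cells with the most Il4 UMIs held 8.79% of them in cKIT+ and 3.63% in cKIT-, and for Il6 1.98% and 2.63%.

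**Figure D2:**
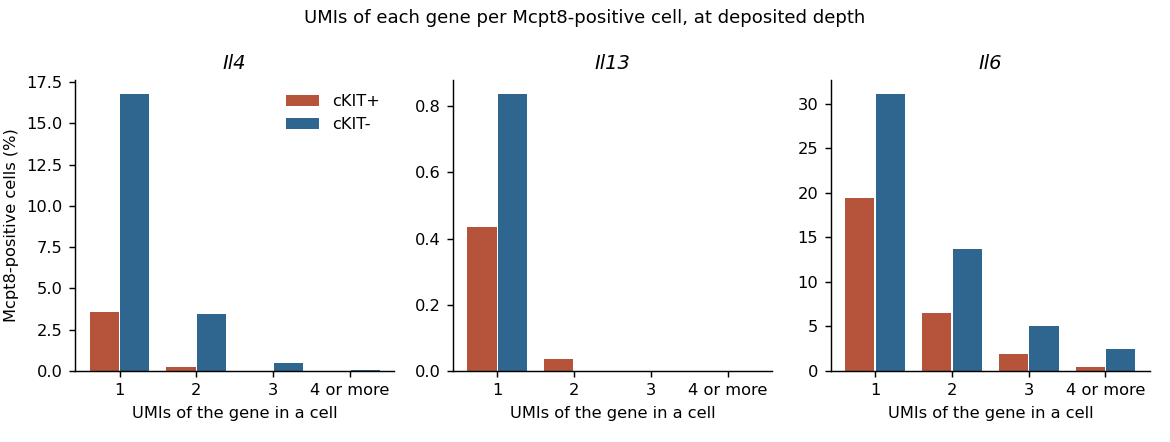
Bars give the percentage of Mcpt8-positive cells with 1, 2, 3 or at least 4 UMIs of each gene at deposited depth, for cKIT+ (red) and cKIT- (blue) cells. The Il6 bars reach 4 or more UMIs in 26 cKIT+ and 80 cKIT- cells, whereas nearly all Il13 cells hold 1 UMI.

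A UMI of any of the 3 cytokines was found in 1753 Mcpt8-positive cKIT+ cells (30.5%) and in 2080 cKIT- cells (62.3%). All 3 together were found in 3 and 2 cells. At 2000 UMIs, Il6 was present in 104 of the 313 cKIT- cells with Il4 (33.2%, 28.0 to 38.7) and in 26.0% of those without Il4 (24.4 to 27.7). At deposited depth these were 53.4% (49.6 to 57.2) and 52.0% (50.1 to 53.9), so that the intervals lay apart at one depth and overlapped at the other. In cKIT+ cells at 2000 UMIs, Il6 was present in 3 of 47 cells with Il4 (6.38%, 1.34 to 17.5) and in 7.02% of those without (6.27 to 7.83). At deposited depth these were 45.7% (38.9 to 52.5) and 27.5% (26.3 to 28.7), with intervals that lay apart. Depth was not held equal in the comparisons at deposited depth, and the type of the cells was held equal in none of these comparisons. At 2000 UMIs, cluster 0 held Il4 in 18.0% and Il6 in 38.2% of its cKIT- cells. In basophil-like cKIT- cells these shares were 6.23% and 22.0%, in both cases whether Mcpt8-positive or not. The part of cell type in the co-detection was not tested. Of the 11 cKIT- cells with Il13 at 2000 UMIs, 1 had Il4 and 4 had Il6, too few to compare.

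Clustering of all 10141 cells gave 25 clusters, and none of the 3 genes was among the variable genes that built them. Both Il4 and Il6 were highest in cluster 0, which held 1236 cKIT- and 72 cKIT+ cells. There Il4 was at 96.4 CPM (86.7 to 107) and Il6 at 258 CPM (242 to 275). Its leading genes included Cd7, the chemokines Ccl4 and Ccl6 and the receptor gene Lilr4b. It expressed 8 of the 10 basophil markers but also the interleukin-7 receptor gene Il7r, so it was left unnamed. Its Mcpt8 (3436 CPM) and Prss34 (1853 CPM) were low beside those of the basophil-like clusters 1, 3, 4, 9 and 12, its Kit was at 0 and its Cdh1, at 354 CPM, was the highest of all clusters. Its median of 2905.5 UMIs per cell was among the lowest. All values for basophil-like cells leave cluster 0 out, although cluster 15, with 7 of those markers, was named basophil-like.

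Cluster 3, basophil-like, with 603 cKIT- and 29 cKIT+ cells, came next, with Il4 at 63.3 CPM (54.7 to 73.0) and Il6 at 185 CPM (170 to 201). For both genes its interval lay apart from those of cluster 0 and of all clusters below with at least 50 cells. Il4 then followed in cluster 12 (21.9 CPM, 17.1 to 27.5), cluster 1 (15.3, 12.9 to 18.1) and cluster 9 (15.3, 12.1 to 18.9), which were not apart from each other, and in cluster 4 (10.8 CPM, 8.53 to 13.4). The basophil-like clusters made up mainly of cKIT+ cells, numbers 2, 5, 6, 7, 13 and 15, had Il4 between 0.189 and 4.75 CPM.

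Il6 did not follow the same order below cluster 3. Clusters 1 (98.4 CPM, 92.1 to 105), 12 (90.2, 80.3 to 101) and 10 (88.5, 79.4 to 98.4) had overlapping intervals, followed by clusters 4 (61.3) and 9 (59.9), which also overlapped. The mainly cKIT+ basophil-like clusters had Il6 between 12.3 and 39.3 CPM, the lowest of them being cluster 15, in which Mcpt8 (4342 CPM) and Prss34 (1717 CPM) were low as well. In the granulocyte/monocyte progenitor-like cluster 8, the deepest with a median of 25990 UMIs, Il6 was at 0.712 CPM (0.326 to 1.35) and Il4 at 0.158 CPM (0.0192 to 0.572). Among the other named types Il6 was 35.8 CPM in the eosinophil-like cluster 11, which also had 6265 CPM of Mcpt8, and 11.0 CPM or less elsewhere.

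Cluster 10 had an Il6 level without a matching Il4 level. All of its 439 cells were cKIT+, its Kit was at 171 CPM, and its leading genes included Gzmb (granzyme B) and Cma1, a mast cell chymase. For naming, a marker counted only at 20 CPM or more and at 10% or more of its highest cluster. By this limit cluster 10 expressed 6 of the 10 basophil markers. It was led by a mast cell gene, but fewer than 3 mast cell markers passed the limit, so it was left unnamed. Il6 was found in 52.6% of these cells, while Il4 was at 3.34 CPM (1.78 to 5.71). Il13 was at its highest here, at 2.57 CPM (1.23 to 4.72) from 10 UMIs, which were 33.3% of the Il13 UMIs of the cKIT+ library from 6.78% of its cells. That interval overlapped those of clusters 3 (1.65 CPM) and 0 (1.59 CPM), so the order of Il13 levels among clusters was not resolved at this depth.

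**Figure D3:**
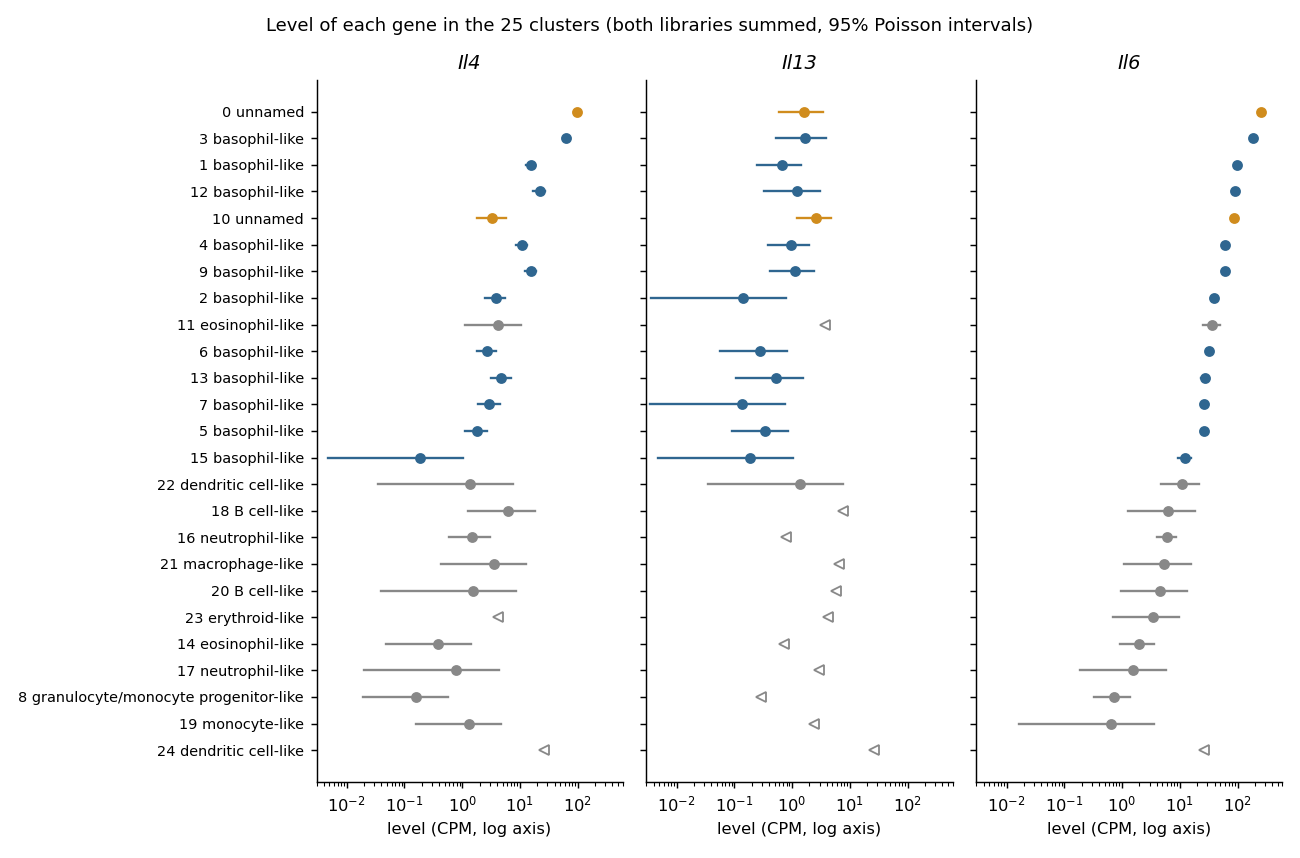
Each point is the level of a gene in 1 cluster, in CPM on a log axis with both libraries summed, and each bar its 95% Poisson interval; open triangles mark the upper bound where no UMI was found. Basophil-like clusters are blue, unnamed clusters orange and other named types grey, ordered by Il6, which runs from 258 CPM in cluster 0 to below 1 CPM in clusters 8 and 19, with cluster 24 at 0.

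The sorts could also be compared inside clusters. In 9 clusters that were basophil-like or unnamed and held at least 20 cells of each library, Il4 was higher in the cKIT- cells in 9 and its interval lay above 1 in 5. Il6 was likewise higher in 9, with the interval above 1 in 7. In cluster 1, whose leading genes are mitotic, Il4 was at 23.4 CPM in cKIT- and 6.35 CPM in cKIT+ cells, a ratio of 3.69 (2.41 to 5.85), and Il6 at 127 and 67.0 CPM, a ratio of 1.89 (1.64 to 2.18). In cluster 0 the libraries differed by less than the counting error, with an Il4 ratio of 1.05 (0.644 to 1.82) and an Il6 ratio of 1.08 (0.801 to 1.5), although only 17 Il4 UMIs came from cKIT+ cells. For Il13 no interval in these clusters lay apart from 1.

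Cluster 0 contributed 40.5% of the Il4 UMIs and 32.1% of the Il6 UMIs of the cKIT- library, from 33.8% of its cells. Without cluster 0, an alternative chosen after its values were seen, Il4 was 10.8-fold and Il6 3.88-fold higher in cKIT- cells. Cells without a Mcpt8 UMI that held these cytokines belonged largely to the unnamed clusters. All 14 such cKIT- cells with Il4 and all 35 with Il6 were in cluster 0, and 74 of the 91 such cKIT+ cells with Il6 (81.3%) were in cluster 10. In all, a cytokine UMI was found in 4.33% of the 323 cKIT- cells without Mcpt8 for Il4 and in 10.8% for Il6. In the 732 such cKIT+ cells these shares were 0.683% and 12.4%.

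Levels were also read along Prss34, a granule protease of basophils. Mcpt8-positive cells were divided into 4 equal groups by the Prss34 share of their UMIs within each library. In cKIT+ cells Il4 was at 0.989 CPM in the lowest group (0.627 to 1.48) and at 5.04 CPM in the highest (4.13 to 6.09), and Il6 at 12.9 and 44.3 CPM. In cKIT- cells Il4 was at 69.6 CPM in the lowest group (60.1 to 80.0) and 24.6 CPM in the highest (21.3 to 28.2), and Il6 at 194 and 97.5 CPM. The ratio of the lowest to the highest group was thus 0.196 for Il4 and 0.291 for Il6 in cKIT+ cells, and 2.83 and 1.99 in cKIT- cells. These 2 cKIT- groups differed in depth, at medians of 2992 and 9538 UMIs. By share of cells, Il4 was in 19.4% of the lowest and 20.1% of the highest, and Il6 in 43.4% and 54.6%. The higher cKIT- levels of the lowest group thus held for CPM and not for the share of cells. Il13 showed no difference beyond counting error along Prss34, with ratios of 0.664 (0.232 to 1.81) and 0.974 (0.229 to 3.21).

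These groups differed in cell type as well as in Prss34. In cKIT+ cells 56.6% of the lowest group were of other named types and 30.3% were basophil-like, against 1.95% and 97.6% of the highest. Cluster 0 made up 81.7% of the lowest Prss34 group in cKIT- cells and 53.1% of the next, but 0 of the 835 cells of the highest. Without its cells, 153 cKIT- cells remained in the lowest group, of which 128 were of other named types and 25 basophil-like. In these Il4 was at 10.9 CPM from 9 UMIs and Il6 at 19.4 CPM from 16 UMIs, and the ratios to the highest group became 0.444 (0.2 to 0.860) and 0.199 (0.113 to 0.325), values that rest mainly on cells of other types. In cKIT+ cells the ratios without cluster 0 were 0.146 for Il4 and 0.267 for Il6.

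Quartiles were therefore drawn again within the basophil-like cells alone, an alternative chosen after the values were seen. The ratio of the lowest to the highest was then 0.239 for Il4 (0.138 to 0.395) and 0.442 for Il6 (0.384 to 0.508) in cKIT+ cells, and 1.79 (1.38 to 2.33) and 1.61 (1.42 to 1.83) in cKIT- cells. As CPM, the lowest quartile thus had less Il4 and Il6 than the highest among cKIT+ cells and more among cKIT- cells. Over the 504 cells of each cKIT- quartile, Il4 had 125 UMIs in the lowest and 112 in the highest, and Il6 had 488 and 487. The cKIT- quartiles thus differed little per cell, and the part of depth in their CPM was not tested. The span of Prss34 was not the same, from 191 to 42673 CPM in the cKIT+ and from 18752 to 76023 CPM in the cKIT- quartiles.

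**Figure D4:**
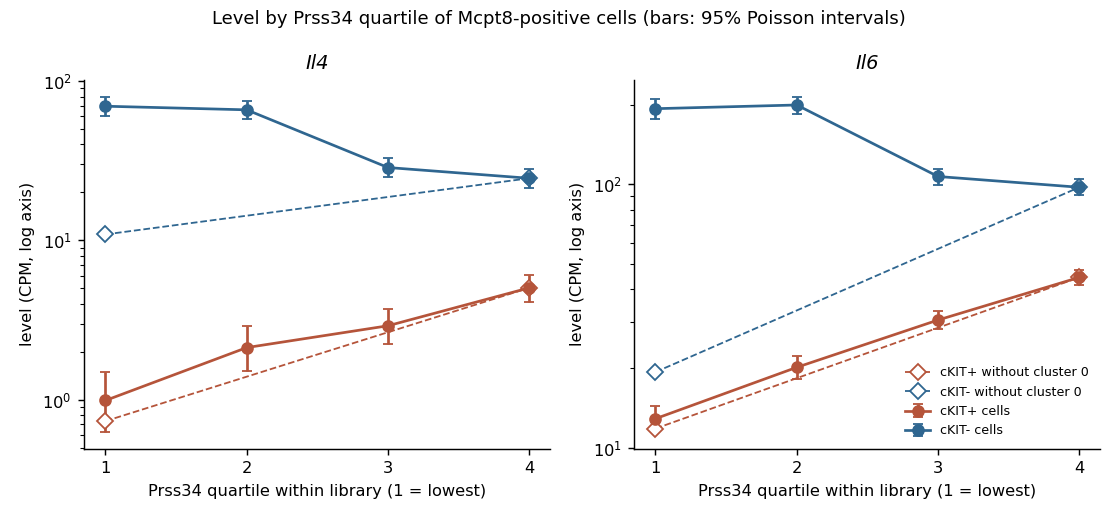
Lines give the level of Il4 and Il6 in CPM (log axis) in Mcpt8-positive cells by quartile of the Prss34 share within each library, cKIT+ in red and cKIT- in blue, with 95% Poisson intervals; open diamonds joined by dashed lines give the lowest and highest quartile without cluster 0. The cKIT- lines fall from 69.6 to 24.6 CPM (Il4) and from 194 to 97.5 CPM (Il6) where the cKIT+ lines rise, and the lowest cKIT- quartile drops to 10.9 and 19.4 CPM when cluster 0 is left out, where 128 of the 153 cells are of other named types.

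Dividing cells were taken as those with a UMI of the proliferation genes Mki67 or Top2a, again among Mcpt8-positive cells of every type. In cKIT- cells Il4 was at 60.6 CPM without and 21.6 CPM with such a UMI, a ratio of 2.81 (2.43 to 3.26), and Il6 at 174 and 95.7 CPM, a ratio of 1.82 (1.69 to 1.96). In cKIT+ cells the ratios were 2.01 (1.51 to 2.66) for Il4 and 1.53 (1.39 to 1.68) for Il6. For Il13 they were 2.51 (1.07 to 5.6) in cKIT+ cells, from 11 and 18 UMIs, and 1.33 (0.587 to 3.0) in cKIT- cells. By share of cells, Il13 was in 0.497% of cKIT+ cells without and 0.457% with such a UMI. Within basophil-like cells alone the Il13 ratios were 0.537 (0.0602 to 2.26) in cKIT+ and 1.26 (0.456 to 3.21) in cKIT- cells. By share of cells Il6 ran the other way. It was in 49.7% of cKIT- cells without and 57.0% with such a UMI, and in 26.2% and 29.1% of cKIT+ cells. Il4 was in 21.9% and 18.5% of cKIT- cells, and in 3.97% and 3.74% of cKIT+ cells. Cells with such a UMI were deeper, at medians of 10426 against 3536.5 UMIs in cKIT- and 16661 against 9533 in cKIT+. The part of depth in these levels and shares was not tested. Within basophil-like cells alone the ratios were 2.04 (1.70 to 2.44) for Il4 and 1.49 (1.36 to 1.63) for Il6 in cKIT- cells, and 1.64 (1.16 to 2.29) and 1.12 (0.998 to 1.25) in cKIT+ cells. When cluster 3 was left out too, a choice made after its values were seen, the cKIT- ratios were 1.02 for Il4 (0.756 to 1.35) and 1.03 for Il6 (0.895 to 1.17), so that no difference beyond counting error was left among basophil-like cKIT- cells. Without cluster 3 the cKIT+ ratios were 1.53 for Il4 (1.07 to 2.15), which stayed above 1, and 1.10 for Il6 (0.980 to 1.23). The mitotic cluster 1 had more Il6 than clusters 12 and 9, at 127 against 98.9 and 75.7 CPM in cKIT- cells. Within the cKIT+ sort, cells without a Kit UMI had Il4 at 3.45 CPM and those with one at 1.61 CPM, a ratio of 2.15 (1.57 to 2.97), and Il6 at 31.6 and 19.2 CPM, a ratio of 1.65 (1.51 to 1.81). Prss34 was at 15955 and 5201 CPM in the same cells.

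Across the 24 clusters with at least 50 cells, the genes most like each cytokine were ranked by Pearson's r of log2(CPM + 1) among genes with at least 10 CPM in a cluster. The clusters differ in depth and in the library they come from, which all such correlations share. The genes nearest Il4 were Trpm4, a calcium-activated cation channel (r = 0.947), the chemokine gene Ccl3 (0.944), A230098N10Rik (0.932), Vps37b, an endosomal sorting subunit (0.930), and the kinase gene Plk3 (0.929). Il6 was nearest to Cyp11a1, the enzyme that starts steroid synthesis (r = 0.964), Csf2rb2, the beta chain of the interleukin-3 receptor (0.957), Adamtsl1 (0.953), Gata2 (0.95) and Tbc1d4 (0.943). Those nearest Il13 were St6galnac5, a sialyltransferase (r = 0.954), the adaptor gene Skap1 (0.871), F2r, the thrombin receptor (0.855), Samd13 (0.840) and the kinase gene Prkcq (0.837). Il13 had only 30 UMIs in cKIT+ and 28 in cKIT- cells, and none in many clusters. Every r of Il13 given here thus rests on few counts, and no pattern was read from it. Il4 and Il6 had an r of 0.827 with each other, Il4 and Il13 of 0.663, and Il6 and Il13 of 0.772. Cdh1 had an r of 0.937 with Il6 and 0.783 with Il4, while Mcpt8 had 0.779 and 0.572.

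Within the cKIT- library at 2000 UMIs per cell, the 313 Mcpt8-positive cells with Il4 were set against the 2805 without. Among genes with at least 50 CPM in the cells with Il4, those with the largest ratios of CPM were Plk3 (2.21, 1.52 to 3.16), the translation factor gene Gspt2 (2.17), Klhl18 (2.07), Zfp36 (2.01, 1.56 to 2.56) and 4833407H14Rik (2.01). For Il6, with 833 cells against 2285 and the same minimum in the cells with Il6, they were Cd7 (1.75, 1.63 to 1.88), the complement receptor gene C3ar1 (1.70), Zfp36 (1.68, 1.38 to 2.05), Ptger4, a prostaglandin receptor (1.67), and Ccl4 (1.64). The minimum was set only on the cells with the cytokine, and the genes were picked by the same ratio. Genes high in those cells by counting error were thus favoured, and the intervals do not allow for this choice. Mcpt8 was lower in cells with either cytokine, with ratios of 0.576 for Il4 and 0.712 for Il6. Cluster makeup was not held equal between cells with and without a cytokine. At this depth cluster 0, low in Mcpt8, held 198 cKIT- cells with Il4 and 421 with Il6, whether Mcpt8-positive or not. Cd7, C3ar1 and Ccl4 were also leading genes of cluster 0. The part of cluster 0 in these ratios was not tested. Only 11 cells held Il13. The genes ranked highest there, Cxcl10, Ptger2, Psd, Cand2 and Ggct, rested on 2 to 5 UMIs, and no pattern was read from them.

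The other genes of the pathway were taken from 6 lists, whose counts stand beside 8.61% higher and 7.31% lower and a median ratio of 1.02 among all 9068 genes with a mean of at least 5 CPM. With 3 to 18 genes a list past that mean, nothing was read as particular to a list. Some genes passed it only through the library where they were high. Among those past 2-fold, Tnf, Socs1 and Nfatc2 were below 5 CPM in cKIT+, and Maf was below 5 CPM in cKIT-. Of 19 other cytokines, 8 had no UMI in either library, among them Il5, which lies in the same cytokine cluster, and Il3, Il9 and Areg, which limits them to 0.0329 CPM in cKIT+ and 0.131 CPM in cKIT- cells. Csf2 had 1 UMI. Of the 3 that passed a mean of 5 CPM, 2 were more than 2-fold higher in cKIT- (8.61% of all genes): Osm, a cytokine of the IL-6 family, at 7.50 and 67.6 CPM (9.01-fold), and Tnf at 4.55 and 15.7 CPM (3.45-fold). Tgfb1 was at 255 and 341 CPM. Tslp, named here outside the rule for named genes, did not pass the mean and ran the other way. It was at 6.42 CPM in cKIT+ and 0.831 CPM in cKIT- (585 and 19 UMIs), a ratio of 0.129 (0.0773 to 0.204).

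Among 14 receptor and JAK-STAT genes, 10 passed the mean, 2 were more than 2-fold higher in cKIT- (8.61% of all genes) and 0 lower (7.31%), with a median ratio of 1.47 (1.02 over all genes). These were the kinase gene Jak2, at 60.1 and 145 CPM, and Socs1, a feedback inhibitor of cytokine signals, at 2.97 and 7.39 CPM. Il2rg, the common gamma chain, was at 47.8 and 85.0 CPM, and Jak1 at 162 and 241 CPM. The specific receptor chains, named here for their role and not by the rule for named genes, were low in both sorts. Il4ra was at 4.52 and 6.78 CPM, Il13ra1 at 0.691 and 1.18 CPM, Il6ra at 5.26 and 5.86 CPM, and Il6st, which encodes gp130, at 3.62 and 3.54 CPM.

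Of 22 regulators of the Il4 and Il13 locus, 18 passed the mean, 7 were more than 2-fold higher in cKIT- (8.61% of all genes) and 1 lower (7.31%), with a median ratio of 1.71 (1.02 over all genes). The higher ones were Nfil3 (9.67 and 60.1 CPM, 6.21-fold), the AP-1 genes Junb (59.3 and 237 CPM, 4.0-fold) and Jun (406 and 965 CPM, 2.38-fold), Nfatc2 (2.62 and 8.88 CPM, 3.38-fold), Cebpa (223 and 667 CPM, 2.99-fold), Cebpb (165 and 456 CPM, 2.76-fold), and Gata2, the main GATA factor of basophils (496 and 1132 CPM, 2.28-fold). Maf was the lower one, at 9.69 and 1.92 CPM. It was also a leading gene of the macrophage-like cluster 21, which held 109 cKIT+ and 9 cKIT- cells, and the part of that cluster was not tested. Among the neighbours of the locus, 4 of 5 measured genes passed the mean and 2 were higher (8.61% of all genes), Sept8 (19.8 and 61.2 CPM) and Irf1 (19.5 and 44.3 CPM). Rad50, the DNA repair gene next to Il13, was at 115 and 69.2 CPM.

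Of 12 activation genes, 6 passed the mean and 3 were higher in cKIT- (8.61% of all genes), with a median ratio of 2.15 (1.02 over all genes). These were Nfkbiz, a co-activator of Il6 (5.32 and 14.1 CPM, 2.64-fold), the early response gene Egr1 (9.76 and 23.7 CPM, 2.43-fold) and the phosphatase gene Dusp1 (26.3 and 61.3 CPM, 2.33-fold). Ier3 was at 131 and 258 CPM and Nfkbia at 127 and 233 CPM. Such genes rise quickly in stimulated cells, and their part in the Il4 and Il6 levels was not tested.

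The 3' ends of the RNAs were also read for a motif. ATTTA, the core of the AU-rich elements bound by RNA decay factors, occurred 2 times in the 107 bases of the annotated 3' untranslated region of Il4, 3 times in the 744 bases of Il13 and 6 times in the 430 bases of Il6. Per 1000 bases these were 18.7, 4.03 and 14.0 matches, against a median of 1.27 over 20693 genes, of which 0.135%, 12.3% and 0.367% were at least as dense. The Il4 density rests on 2 matches in a short region, and Il13 held more matches than Il4. A match describes the letters only, and a part of RNA decay in the levels was not tested. Of the 7 RNA decay and translation factors, 7 passed the mean and 2 were more than 2-fold higher in cKIT- (8.61% of all genes), with a median ratio of 1.33 (1.02 over all genes). These were Zfp36, which encodes the ARE-binding protein tristetraprolin (5.62 and 47.7 CPM, 8.48-fold), and Zc3h12a, which encodes the Il6 mRNA nuclease regnase-1 (6.15 and 15.3 CPM, 2.48-fold). Zfp36l2 was at 147 and 190 CPM, and Elavl1, which encodes the stabilising factor HuR, at 96.2 and 109 CPM.

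**Figure D5:**
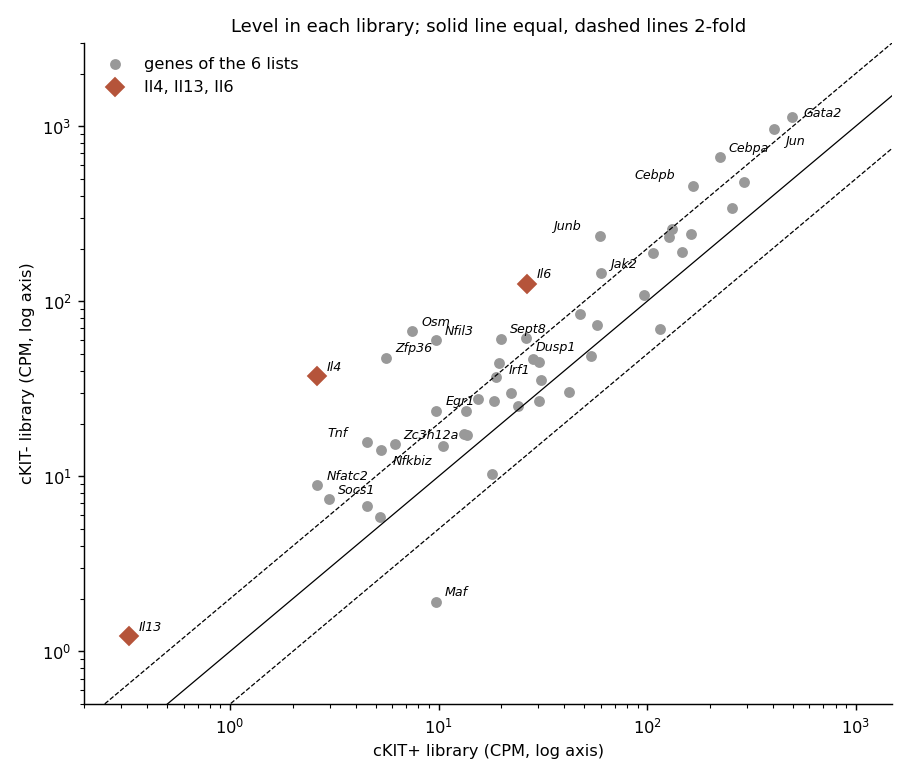
Each point is a gene, with its level in the cKIT+ library on the horizontal and in the cKIT- library on the vertical axis, both in CPM on log axes; red diamonds are Il4, Il13 and Il6 and grey points the genes of the 6 lists with a mean of at least 5 CPM. The solid line marks equal levels and the dashed lines 2-fold; Il4 lies farthest above, at 2.62 and 37.3 CPM, and Maf lies farthest below, at 9.69 and 1.92 CPM.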

How the data were processed

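The authors sequenced 1 library per sort with the 10x Genomics 3' assay and deposited whole UMI counts per gene and cell from Cell Ranger 3.0.2 on mm10 (per the labels, which name different kit versions). All intervals cover counting error only, and n = 1 library per sort. Cells were filtered as in the study: genes in at least 40 cells were counted, and the 1% of cells with the most and the fewest genes and the 1% with the most UMIs were removed, leaving 10141 of 10377. Cells were clustered with Seurat 5.3.0 (2000 variable genes, 15 principal components, resolution 1). Clusters were named from marker lists. Doublets were scored with Scrublet in Scanpy 1.11.5 but kept; it called 292 cKIT+ and 3 cKIT- cells, too few in the latter to have worked, so the highest scores were left out as an alternative (0.8% per 1000 cells).

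Exact Poisson intervals were computed for CPM, exact binomial (Clopper-Pearson) intervals for shares and for ratios (SciPy 1.17.1). Thinning to 2000 UMIs left out 345 cKIT+ and 176 cKIT- cells. Besides the cytokines, the text names the sort and basophil genes, from each list the 3 genes highest in mean CPM and up to 6 past 2-fold, and the 5 most alike genes by 2 measures. The cytokines and lists were chosen with earlier results of these data known. Protein sequences were not used here.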

Additional observations from a re-analysis of the deposited data

Results flagged for a closer look

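As CPM, the change of Il4 and Il6 along Prss34 ran in opposite directions in the sorts. The level in the lowest Prss34 quartile over that in the highest was 0.196 for Il4 and 0.291 for Il6 in cKIT+ cells, and 2.83 and 1.99 in cKIT- cells. With 1 library per sort the difference was not tested. Of the lowest quartile of cKIT+ cells, 56.6% were of other named types. Cluster 0 made up 81.7% of the lowest quartile of cKIT- cells, and without it the cKIT- ratios were 0.444 and 0.199, in a quartile left with 128 cells of other named types and 25 basophil-like cells. Within basophil-like cells alone the ratios were 0.239 and 0.442 in cKIT+ and 1.79 and 1.61 in cKIT- cells. In those cKIT- quartiles of 504 cells each, Il4 had 125 and 112 UMIs and Il6 488 and 487, so that they differed little per cell.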

How the results depend on the processing

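Of 92 values recomputed under an alternative, 45 lay inside the 95% interval of the value given above and 47 moved. The count of list genes has no such interval. No ratio of cKIT- over cKIT+ fell below 1, while a share, a highest level or a count has no direction of its own. As UMIs per cell instead of CPM, the cKIT- over cKIT+ ratios were 6.32 for Il4, 1.65 for Il13 and 2.11 for Il6. They were 8.97 (Il4) and 3.36 (Il6) in basophil-like cells alone, 10.8 (Il4) and 3.88 (Il6) without cluster 0, and 5.09 (Il6) without the 10 most abundant genes. The shares of Mcpt8-positive cells are given as cKIT+ and then cKIT-. At 2000 UMIs they were 1.08% and 10.0% for Il4, 0.115% and 0.353% for Il13, and 7.01% and 26.7% for Il6. At 1000 UMIs they were 0.437% and 5.25% for Il4, 0.0485% and 0.132% for Il13, and 3.52% and 14.9% for Il6. With at least 2 UMIs of the gene they were 0.244% and 3.89% for Il4, 0.0348% and 0 for Il13, and 8.82% and 21.1% for Il6. For Il13 this put cKIT+ above cKIT-, the reverse of the order given above, from 2 cells. With at least 3 Mcpt8 UMIs they were 4.55% for Il4 in cKIT+, and 32.2% and 55.3% for Il6. With at least 10 Mcpt8 UMIs they were 5.13% for Il4 in cKIT+, and 36.5% and 56.3% for Il6. With Mcpt8 read at full depth and the cytokine at 2000 UMIs they were 0.866% and 9.83% for Il4, 0.108% and 0.343% for Il13, and 6.24% and 26.3% for Il6. Outside other named types they were 4.90% for Il4 in cKIT+, and 37.4% and 54.9% for Il6. The highest Il4 level of a cluster was 80.7 CPM at resolution 0.5 and 110 CPM at resolution 2, and the highest Il6 level 224 and 276 CPM. Of the list genes, 19 were past 2-fold, 12 with a mean of at least 20 CPM and 5 past 4-fold. No paired analysis was possible because each sort has only its own library. The cause of these changes was not tested.

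Depth limits Il13 most, with 30 and 28 UMIs. A share of cells with a UMI is not the share of cells that express a gene. The libraries differ in depth, and in cell types, and neither can be told apart from the sort with 1 library each.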
